A study of Bos taurus with 30 samples.

Results

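The embryonic discs (ED) of 7 bovine embryos produced in vitro (IVP) were compared with the ED of the 4 least advanced embryos produced in vivo (IVV), to see which differences remain when an IVP ED is set beside an IVV ED with little primitive streak expression. These 11 libraries belong to the 16 ED libraries of a series of 30, whose other libraries come from the extra-embryonic membranes (EEM). The 4 IVV libraries were chosen by a score, the mean of log2(CPM + 1) over TBXT, MIXL1 and EOMES, where CPM is the usual depth-scaled count, a gene's count over the library total times 1e6. The 4 lowest of the 9 IVV scores were taken.

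Every embryo was flushed on day 15. IVP embryos came from oocytes aspirated from slaughterhouse ovaries, which were matured, fertilized with semen of a single Holstein bull, grown in serum-free medium and transferred on day 7 to synchronized recipient cows. IVV embryos came from donor cows that were superovulated with follicle-stimulating hormone and inseminated with semen of the same bull. By the study's methods the IVP embryos grew in 2 recipients and the IVV embryos in 2 donors, and the number of cows behind the slaughterhouse oocytes is not given. The labels do not tie an embryo to a cow, and the procedure and the uterus (recipient or superovulated donor) cannot be told apart. The labels give neither sex nor morphology embryo by embryo, and an embryo is the unit of replication. Embryos are named as in the titles, where the meaning of the prefixes IVP and IVPF is not given. The titles also end in a letter of unstated meaning, A in IVPF13, IVPF14, VE19 and VE3 and C in the other 7 of the 11 ED.

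In the elongating bovine conceptus, the ED holds the epiblast, which is covered below by hypoblast and is continuous with the trophoblast of the EEM. Gastrulation begins there as epiblast cells pass through the primitive streak and form mesoderm and endoderm. TBXT, MIXL1 and EOMES encode transcription factors of the streak, and signals of the BMP, Wnt and Nodal families are needed for its formation. In bulk tissue, fewer cells of a type and less RNA per cell cannot be told apart.

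The scores of the 7 IVP ED ran from 1.20 to 2.43, with a median of 1.41. The 4 chosen IVV ED had scores of 1.52 (VE4), 2.79 (VE24), 2.89 (VE19) and 3.27 (VE3), and the lowest of the other 5 was 3.28 (VE6). VE4 was therefore the sole IVV embryo within the range of the IVP embryos, and VE3 and VE6, on either side of the limit, had nearly the same score. TBXT stood at 0.187, 4.52, 1.62 and 5.44 CPM in VE4, VE24, VE19 and VE3, against 0 to 1.65 CPM in the IVP ED. MIXL1 stood at 3.76, 4.13, 8.41 and 7.21 CPM against 1.19 to 3.62 CPM, and EOMES at 3.14, 10.6, 15.3 and 16.1 CPM against 1.84 to 11.8 CPM. The 3 genes were selected on to form the group, so they were not tested and enter no count. The choice narrowed the gap in streak expression but did not close it.

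**Figure D1:**
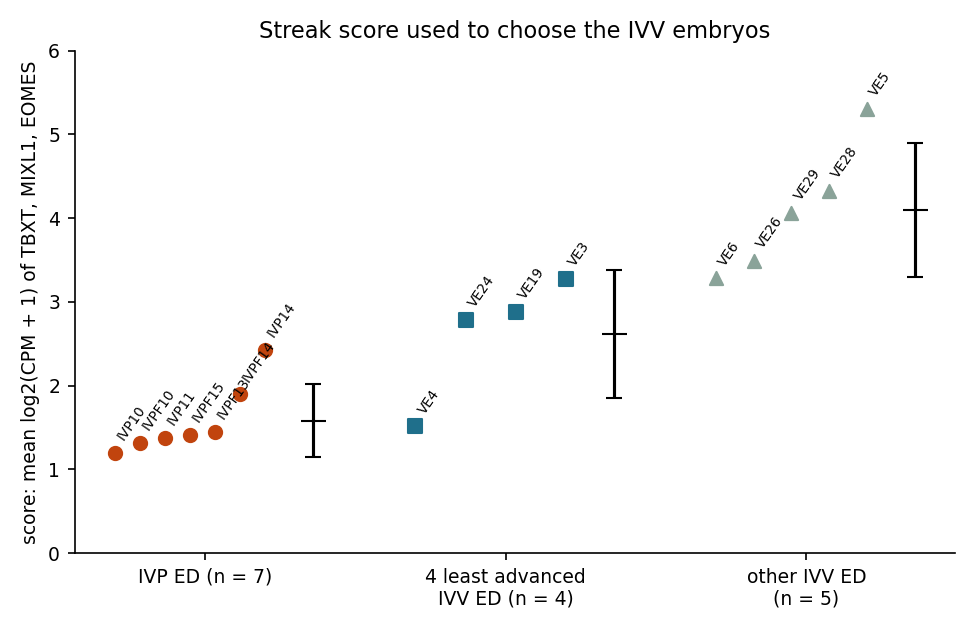
Score of each ED library (vertical axis, mean log2(CPM + 1) of TBXT, MIXL1 and EOMES) in the 7 IVP, the 4 least advanced IVV and the other 5 IVV embryos, with the mean and SD of each group in black. VE4, at 1.52, is the sole IVV point within the IVP range of 1.20 to 2.43.

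The labelled tissue was checked with lineage markers. POU5F1, a pluripotency factor of the epiblast, was present in each of the 11 libraries, at 16.1 to 43.3 CPM in IVP and at 28.7, 38.8, 60.8 and 102 CPM in VE4, VE24, VE19 and VE3. NANOG, another epiblast factor, ran from 2.49 to 14.8 CPM in IVP and from 3.31 to 20.9 CPM in the 4 IVV ED. SOX2 was listed at 0 counts in every ED library, so it gives no check of the epiblast. The trophoblast factors CDX2 and GATA3 were at 16.3 to 143 and 27.3 to 127 CPM in IVP, ranges that held all 4 IVV values. The trophoblast list summed to 15182 to 55915 CPM in IVP and 25165 to 35237 CPM in the 4 IVV ED, so trophoblast RNA was abundant in libraries of both groups. The log2 ratio of summed epiblast to summed trophoblast genes ran from -7.33 to -4.66 in IVP and from -6.27 to -5.52 in the 4 IVV ED, and so the groups overlapped.

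XIST, the RNA that coats the inactive X chromosome of female cells, separated the groups almost completely. It stood at 82.7, 61.4 and 120 CPM in VE4, VE24 and VE19 and at 0.018 CPM in VE3, while the 7 IVP ED ran from 0 to 0.291 CPM with a median of 0.0998. The log2 fold change was -8.67 ± 1.05 (SE; adjusted p = 0.000247), and -6.44 with limma voom, which did not call it (adjusted p = 0.489). IVP embryos and XIST-poor embryos are thus nearly the same libraries here, and a difference between the procedures cannot be told apart from one that follows XIST, except through VE3. Among the other 5 IVV ED, VE5 was likewise poor in XIST, at 0.0186 CPM. For this reason the values of VE3 are given beside those of VE4 below.

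Of 15862 genes tested, 71 were lower and 28 were higher in IVP than in the 4 IVV ED (edgeR's quasi-likelihood test, adjusted p under 0.05). These are 0.448% and 0.177% of the genes, and 1221 genes had an unadjusted p under 0.05. The median log2 fold change of all genes was 0.01. Of the 71, 20 were at the floor (at most 3 counts) in every IVP ED, and of the 28, 13 were at the floor in every one of the 4 IVV ED. These genes passed the filter on low counts through the group where they were high, so they could be called in 1 direction alone, and their counts lend no support to that direction. Among the genes lower in IVP were MESP2 and APLNR of the nascent mesoderm, CD34 and KDR of blood and endothelial progenitors, BMP4 and its target ID1, FOS, and 3 core histone genes. Among those higher in IVP were SCTR, HSD3B1, TDRD9 and DDIT4, and 15 of the 28 had a LOC number or no symbol. The counts moved with single libraries. Without VE4 they were 116 and 31, without VE19 97 and 63, without VE3 61 and 13, and without VE24 63 and 16. With IVP14 or IVPF14 left out, 18 genes were called higher. With at least 10 counts required in every library, the counts were 13 and 2. With DESeq2 in place of edgeR the counts were 151 and 100.

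**Figure D2:**
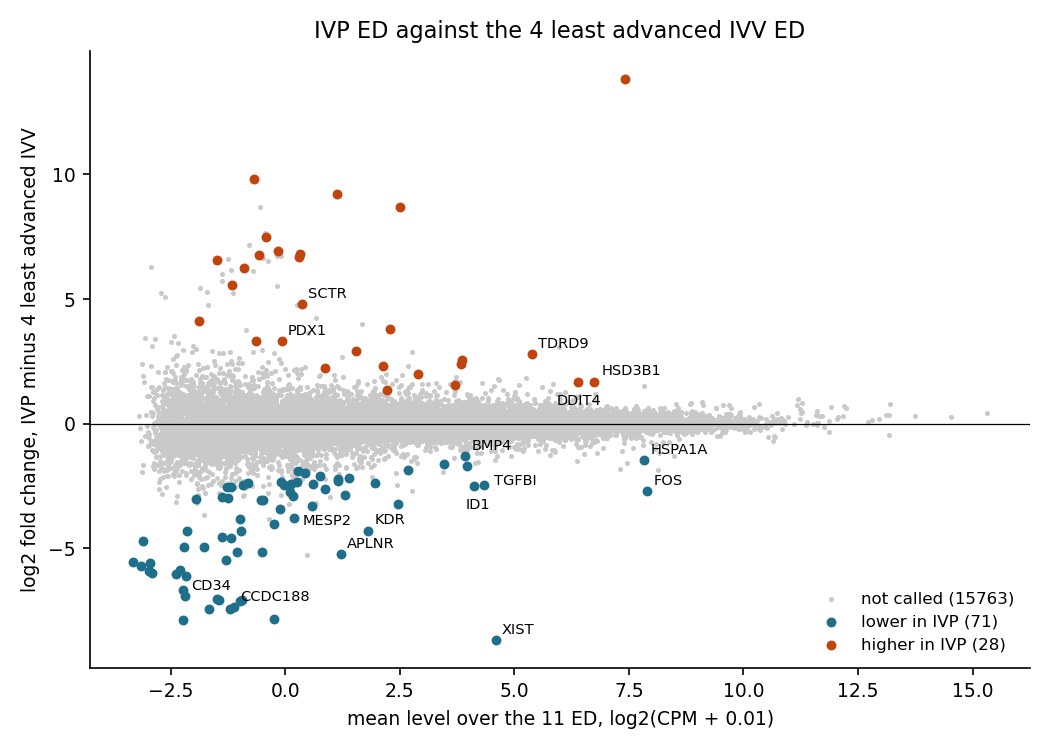
Log2 fold change of each gene between the 7 IVP and the 4 least advanced IVV ED (vertical axis, IVP minus IVV) against its mean level over the 11 libraries (horizontal axis, log2 scale). The 71 genes called lower in IVP lie mostly at low levels, with FOS, HSPA1A and XIST to the right, and the 28 called higher include TDRD9, DDIT4 and HSD3B1 at high levels.

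Single IVV embryos were also set against the range of the 7 IVP ED. In VE4, whose score lay within the IVP range, 9.12% of all tested genes were above all 7 IVP ED and 5.52% were below them. All 71 genes called lower in IVP were above the IVP range in VE4, and 14 of the 28 called higher were below it. In VE3, the XIST-poor embryo, 10.5% of tested genes were above the IVP range and 3.9% below it, and 69 of the 71 and 16 of the 28 called genes were on that side. These embryos took part in the calls, so the counts describe the calls and are no further test of them. In 55 of the 71 genes called lower, and in 11 of the 28 called higher, no IVV value overlapped the IVP range, against 1.1% and 0.372% of all tested genes.

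MESP2 and APLNR, genes of the nascent mesoderm, were lower in IVP even beside these IVV ED, while the other tested genes of their list were not called. Of the 24 tested members of the primitive streak and nascent mesoderm list, 2 were lower (MESP2 and APLNR), 0 were higher, and the list's median log2 fold change was -1.19. MESP2 (Entrez 615145), a transcription factor of early and presomitic mesoderm, stood at 2.80, 1.57, 2.80 and 3.95 CPM in VE4, VE24, VE19 and VE3. In the IVP ED it ran from 0 to 0.381 CPM with a median of 0.222. The groups did not overlap, and VE4, with a streak score inside the IVP range, held as much MESP2 as VE19. The log2 fold change was -3.80 ± 0.64 (adjusted p = 0.00568).

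APLNR (Entrez 615435), the apelin receptor of migrating mesoderm and endothelial precursors, stood at 10.7, 6.66, 0.185 and 6.11 CPM in VE4, VE24, VE19 and VE3. The 7 IVP ED ran from 0 to 0.694 CPM with a median of 0.136. VE19 was within the IVP range and the other 3 IVV embryos were above it, with a log2 fold change of -5.22 ± 0.65 (adjusted p = 0.000309). VE4, lowest in score, held the highest level of the 4, and the other 5 IVV ED, all higher in score, ran from 14.9 to 37.7 CPM, above each of the 4.

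Other genes of the streak list did not pass the test. WNT3, the ligand that starts the streak in mammals, stood at 0.953, 1.17, 1.99 and 3.35 CPM in VE4, VE24, VE19 and VE3 and at 0.164 to 0.845 CPM in IVP. Its log2 fold change was -2.14 ± 0.49 (adjusted p = 0.058; 0.028 without a surrogate variable). LEF1, a nuclear effector of Wnt signals, had a log2 fold change of -2.23 ± 0.62 (adjusted p = 0.15), and VE19, at 0.812 CPM, lay in the IVP range. MESP1, TBX6 and GSC, mesoderm and streak factors chosen after their values were seen, had log2 fold changes of -1.72, -1.26 and -1.12 (adjusted p = 0.189, 0.377 and 0.798). In the presomitic mesoderm and Notch list, 1 of 16 tested genes was lower, MESP2 again, with a list median of -0.78. LFNG, a Notch-modifying enzyme of the segmentation clock, had a log2 fold change of -1.80 ± 0.44 (adjusted p = 0.0837), although its groups did not overlap.

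Against the other 5 IVV ED, with the same 7 IVP libraries on the other side, 1298 genes (8.17% of 15889) were lower in IVP and 232 (1.46%) were higher. Both comparisons share the IVP libraries, so their values are set side by side only. The streak list had 16 of 26 tested members lower and a median of -2.10 against the other 5. MESP2 was at 4.53 to 9.87 CPM in those 5 embryos, WNT3 at 2.60 to 9.67 CPM, LEF1 at 4.44 to 12.8 CPM and TBX6 at 1.74 to 5.02 CPM. The 4 and the 5 were split by 3 streak genes, and no test was made between them.

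**Figure D3:**
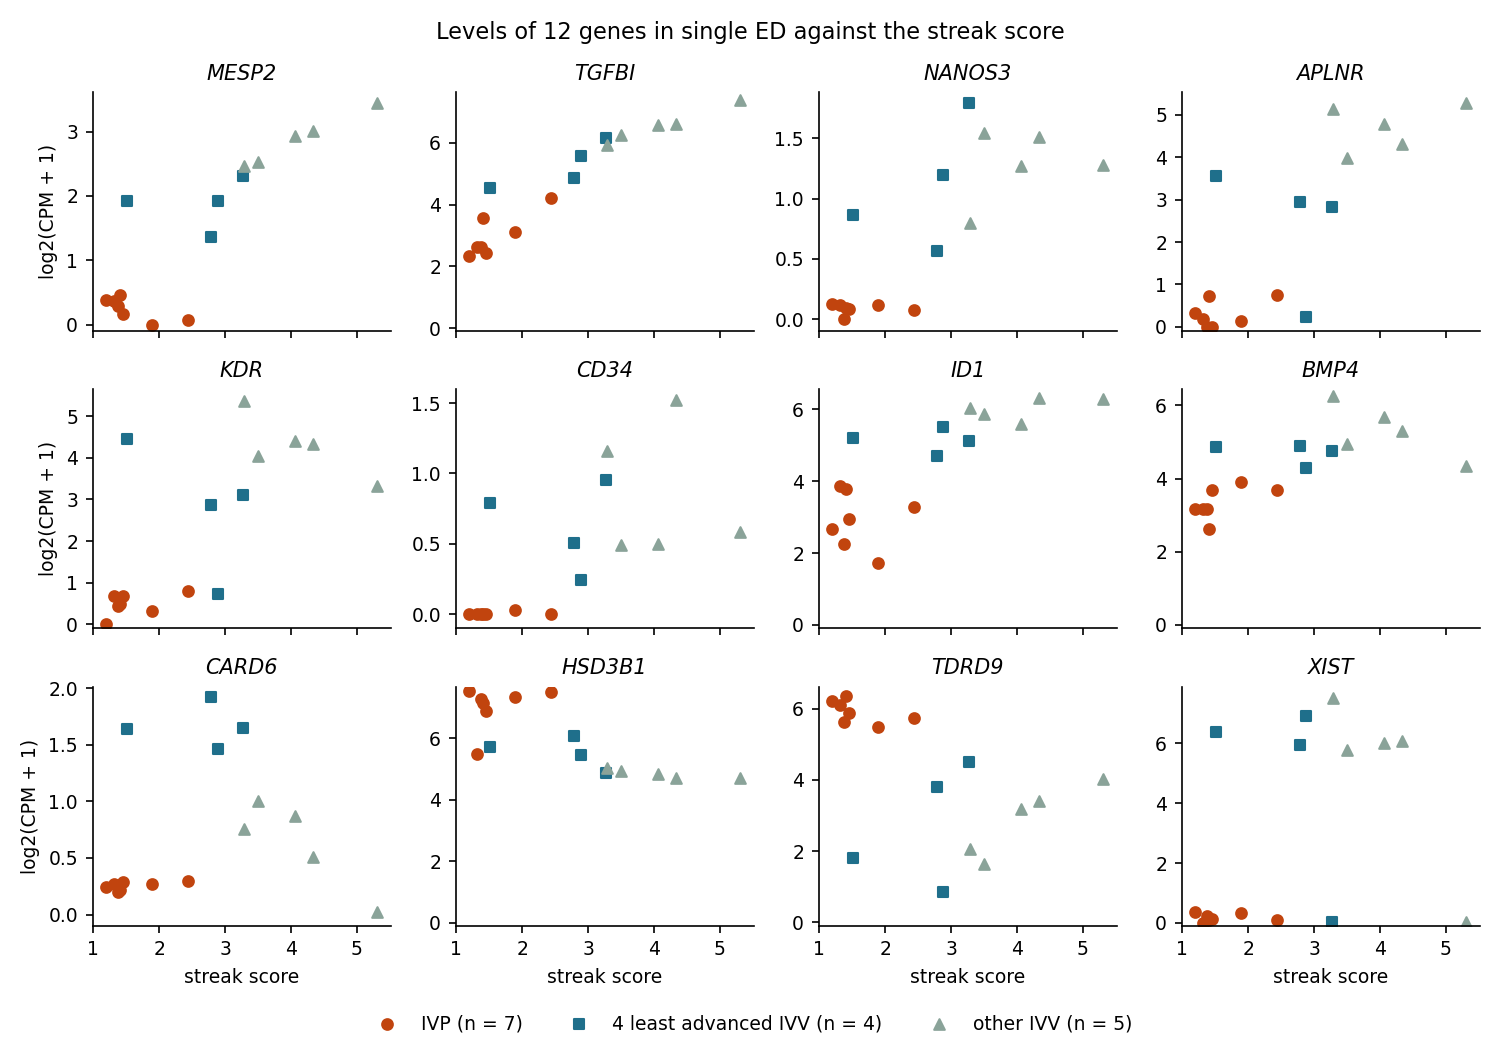
Levels of 12 genes (vertical axes, log2(CPM + 1)) in each of the 16 ED against the streak score (horizontal axes), with IVP as circles, the 4 least advanced IVV as squares and the other 5 IVV as triangles. TGFBI rises with the score in step with the groups, while KDR, CD34, ID1, NANOS3 and CARD6 are high in VE4, the square at a score of 1.52, and TDRD9 is highest in the 7 IVP embryos.

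CD34, KDR and LMO2, genes of blood and endothelial progenitors, were lower in IVP, while the other tested genes of their list were not called. Of 15 tested members of that list, 3 were lower (CD34, KDR and LMO2), 0 were higher, and the median was -0.18, with 8 of the 15 negative. The list summed to 76 to 516 CPM in IVP and to 168 to 296 CPM in the 4 IVV ED. KDR (Entrez 407170), the VEGF receptor of endothelial and blood precursors, stood at 20.9, 6.31, 0.646 and 7.64 CPM in VE4, VE24, VE19 and VE3. IVP ED ran from 0 to 0.751 CPM with a median of 0.412, and VE19 alone of the 4 lay in that range. The log2 fold change was -4.29 ± 0.69 (adjusted p = 0.00397). It was -4.16 with XIST as a covariate (adjusted p = 0.0655). With the 3 embryos titled IVP alone it was -4.09 (adjusted p = 0.143), and with the 4 titled IVPF -3.81 (adjusted p = 0.0776).

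CD34 (Entrez 281051), a surface sialomucin of the same progenitors, stood at 0.729, 0.421, 0.185 and 0.937 CPM in VE4, VE24, VE19 and VE3. IVP ED held 0 or 1 counts of it each, so that it was at least 10.3-fold lower in IVP (adjusted p = 0.000247), taking 3 counts per library as the floor. It passed the filter on low counts through the IVV ED alone, so it could be called in no other direction. FLI1 (Entrez 529124), an ETS factor of the same lineage, stood at 3.74, 2.41, 0.111 and 1.89 CPM in VE4, VE24, VE19 and VE3 and at 0 or 1 counts in every IVP ED, at least 36.9-fold lower. It did not pass the filter on low counts because VE19 held 6 counts. In the fit without that filter it was called lower (adjusted p = 1.68e-07). At 0 or 1 counts in IVP, FLI1 could be called in no other direction there either. LMO2, a partner of the early blood factors, had a log2 fold change of -2.44 ± 0.48 (adjusted p = 0.02), a call that was lost without VE3 (adjusted p = 0.216) or IVP11 (adjusted p = 0.113) and with the title letter as a term (adjusted p = 0.0611).

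The ligand BMP4 and the BMP response genes ID1, ID4 and MSX1 were lower in IVP, 4 of the 22 tested members of the BMP list, with 0 higher and a median of -0.54. ID1 (Entrez 497011), a direct target of BMP signals that blocks helix-loop-helix factors, stood at 35.6, 25.1, 44.8 and 33.8 CPM in VE4, VE24, VE19 and VE3. It ran from 2.30 to 13.7 CPM in IVP, with a median of 6.72. All 4 IVV embryos lay above all IVP embryos, and the log2 fold change was -2.50 ± 0.39 (adjusted p = 0.00331). It was -2.07 with XIST as a covariate (adjusted p = 0.157).

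BMP4 (Entrez 407216) stood at 28, 28.4, 18.6 and 26.1 CPM in VE4, VE24, VE19 and VE3, against 5.20 to 13.9 CPM in IVP with a median of 8.02. The groups did not overlap, with a log2 fold change of -1.31 ± 0.26 (adjusted p = 0.0203). With XIST as a covariate it was -1.40 (adjusted p = 0.475), and the call was also lost under the strictest filter (10 counts or more in each library) and with the 3 embryos titled IVP. ID4 and MSX1, further BMP response genes, had log2 fold changes of -1.87 ± 0.35 and -1.62 ± 0.36 (adjusted p = 0.0143 and 0.0448), and of -1.43 and -1.42 without a surrogate variable (adjusted p = 0.207 and 0.0716). The call of ID4 was lost without VE19, VE3 or IVP11 (adjusted p = 0.183, 0.0528 and 0.204), and that of MSX1 in 8 leave-one-out fits, without VE19, VE3, IVP10, IVP11, IVP14, IVPF13, IVPF14 or IVPF15 (adjusted p from 0.0534 to 0.344). With the title letter as a term the adjusted p of MSX1 was 0.104. ID4 and MSX1 had log2 fold changes of -2.06 and -1.69 with XIST as a covariate (adjusted p = 0.145 and 0.436).

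In the Wnt list, 1 of 29 tested genes was lower (WNT5A) and 1 was higher (RSPO3), with a median of -0.30. WNT5A, a ligand of the non-canonical pathway, stood at 5.34, 1.81, 0.904 and 4.99 CPM in VE4, VE24, VE19 and VE3 and at 0.379 to 1.24 CPM in IVP. VE19 overlapped the IVP range, and the log2 fold change was -2.10 ± 0.41 (adjusted p = 0.02). RSPO3, a secreted enhancer of Wnt signals that is also in the hypoblast list, stood at 5.94 to 6.47 CPM in the 4 IVV ED and at 5.47 to 26 CPM in IVP, with a log2 fold change of 1.55 ± 0.34 (adjusted p = 0.0426). Without VE4, VE3, IVP11 or IVPF10 the adjusted p of WNT5A was 0.0743 to 0.122, and that of RSPO3 was 0.0537 to 0.191 in 10 leave-one-out fits, that without IVP10 excepted, and 0.0654 with the title letter as a term. Their log2 fold changes were -2.53 and 1.41 with XIST as a covariate (adjusted p = 0.0976 and 1). No member of the Nodal (17 tested) or FGF (16 tested) lists passed the test, with medians of 0.16 and -0.04.

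TGFBI, CDH11 and TNC, genes of matrix and mesenchyme, were lower in IVP. Of 22 tested members of the epithelial to mesenchymal transition and matrix list, 3 were lower in IVP, 0 were higher, and the median was -0.29, with 14 of the 22 negative. The summed level of that list in IVP, 1833 to 8144 CPM, covered the 1958 to 4298 CPM of the 4 IVV ED. TGFBI (Entrez 539596), a secreted matrix protein, stood at 22.1, 28.2, 46.8 and 70.0 CPM in VE4, VE24, VE19 and VE3. IVP ED ran from 4.09 to 17.5 CPM with a median of 5.19, and IVP14, highest of the 7 in score, held the most. The groups did not overlap, with a log2 fold change of -2.47 ± 0.41 (adjusted p = 0.00448).

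CDH11, a cadherin of mesenchymal cells, stood at 10.3, 4.61, 0.424 and 5.03 CPM in VE4, VE24, VE19 and VE3 against 0.278 to 2.57 CPM in IVP, with VE19 inside the IVP range (log2 fold change -2.18 ± 0.43, adjusted p = 0.0221; 0.0859 without a surrogate variable). TNC, the matrix protein tenascin C, had a log2 fold change of -3.07 ± 0.63 (adjusted p = 0.0288). The call of TNC was lost without VE3 or IVP10 (adjusted p = 0.1 and 0.0621), and that of CDH11 without VE4, VE24, VE3, IVP10, IVP11, IVP14 or IVPF10 (adjusted p from 0.0649 to 0.262). TNC and CDH11 had log2 fold changes of -3.68 and -2.14 with XIST as a covariate (adjusted p = 0.0856 and 0.534). VE19 was thus the lowest of the 4 IVV embryos for APLNR, KDR, CD34, FLI1, WNT5A and CDH11, and the highest for ID1.

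The immediate early gene FOS and the heat shock gene HSPA1A, both induced within minutes to hours of a stimulus, were lower in IVP. FOS (Entrez 280795) stood at 214, 602, 1031 and 283 CPM in VE4, VE24, VE19 and VE3 and at 41.5 to 101 CPM in IVP, with a median of 70.1. The groups did not overlap (log2 fold change -2.71 ± 0.44, adjusted p = 0.00398). With XIST as a covariate it was -1.82 (adjusted p = 0.443). Of 36 tested immediate early genes, 2 were lower (FOS and NR4A1), 0 were higher, and the median was -0.48. EGR1, chosen after its values were seen, stood at 88.1 to 618 CPM in the 4 IVV ED and at 30.8 to 177 CPM in IVP (log2 fold change -1.56 ± 0.52, adjusted p = 0.285). NR4A1, an orphan nuclear receptor, had a log2 fold change of -1.69 ± 0.37 (adjusted p = 0.0432), which rose to between 0.0526 and 0.358 without VE4, VE24, VE19, VE3, IVP11, IVPF10, IVPF13, IVPF14 or IVPF15 and was 0.0512 with the title letter as a term. It was -1.33 without a surrogate variable (adjusted p = 0.39) and -1.07 with the epiblast share as a covariate (adjusted p = 0.292). Its log2 fold change was -1.60 with XIST as a covariate (adjusted p = 0.706).

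HSPA1A (Entrez 282254), an inducible chaperone with near-identical copies, stood at 360, 361, 366 and 468 CPM in VE4, VE24, VE19 and VE3 and at 73.3 to 234 CPM in IVP, with a median of 132. Its log2 fold change was -1.46 ± 0.31 (adjusted p = 0.0369), and the call was lost without VE24, VE19, VE3, IVP10, IVPF13 or IVPF14 (adjusted p from 0.0556 to 0.124) and with the title letter as a term (adjusted p = 0.0677). With XIST as a covariate its log2 fold change was -1.64 (adjusted p = 0.405). It was the 1 gene called among 24 tested members of the integrated stress and unfolded protein response list, whose median was -0.14. DNAJB1, its co-chaperone, had a log2 fold change of -1.16 ± 0.28 (adjusted p = 0.0812).

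All 30 tested core histone genes had a negative log2 fold change, with a median of -1.37, and 3 of them were called lower (H2BC13, H2AC25 and H2BC5). The list holds 59 genes, and some of those tested passed the filter on low counts through the IVV ED alone. Among them were H2BC13 (0 or 1 counts in each IVP ED) and H3C10 (3 to 9 counts). Such genes could only be negative, so the 30 negative signs and the median were in part fixed in advance. The summed level of the list was 22.6 to 47.3 CPM in IVP and 56.8 to 91.3 CPM in the 4 IVV ED, with no overlap. H2AC25 (Entrez 538911) stood at 1.40, 3, 1.83 and 3.75 CPM in VE4, VE24, VE19 and VE3 and at 0.0635 to 0.542 CPM in IVP (log2 fold change -2.90 ± 0.51, adjusted p = 0.00704). H2BC5 had a log2 fold change of -1.91 ± 0.35 (adjusted p = 0.0104; 0.0684 without VE3). With XIST as a covariate H2AC25 kept its call (adjusted p = 0.0291), while H2BC5 and H2BC13 had log2 fold changes of -2.42 and -4.86 (adjusted p = 0.0555 and 0.0658). The fitted fold of H2BC13 is no bound, since every IVP ED was at the floor for it. Most core histone transcripts lack a poly(A) tail and the libraries were poly(A)-selected, and histone genes are near-identical to one another, so the counts cover a small and uncertain part of their RNA. The replication and mitosis list, with 28 tested members, had 0 calls and a median of 0.12.

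NANOS3 (Entrez 112447338), an RNA-binding protein gene of primordial germ cells, stood at 0.822, 0.476, 1.29 and 2.47 CPM in VE4, VE24, VE19 and VE3. IVP ED ran from 0 to 0.0909 CPM, far below the lowest IVV value, with a log2 fold change of -4.30 ± 0.63 (adjusted p = 0.00185). With 0 to 5 counts in each IVP ED, NANOS3 passed the filter on low counts through the IVV ED alone and could be called in no other direction. It was the 1 call among 9 tested germ cell genes, whose median was -0.20.

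The smallest p of all belonged to genes that were at or near 0 in IVP. CCDC188 (Entrez 100848428) stood at 1.03, 1.70, 1.01 and 1.17 CPM in VE4, VE24, VE19 and VE3 and was at the floor in all 7 IVP ED, at least 22.3-fold lower (adjusted p = 7.08e-05). MYO3A, an unconventional myosin, was at least 25.2-fold lower (adjusted p = 7.08e-05), at 0.766 to 2.23 CPM in the 4 IVV ED. CYP4B1, a cytochrome P450, and KRT23, a keratin, were at least 10-fold and 8.89-fold lower (adjusted p = 0.000247 and 0.000539). These 4 genes, too, passed the filter through the IVV ED alone.

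CARD6 (Entrez 520291), which encodes a caspase recruitment domain protein, went against the order of the score. It stood at 2.11, 2.78, 1.75 and 2.13 CPM in VE4, VE24, VE19 and VE3, at 0.148 to 0.225 CPM in IVP and at 0.0186 to 1.00 CPM in the other 5 IVV ED. The log2 fold change was -3.43 ± 0.37 against the 4 (adjusted p = 9.23e-05) and -1.45 against the other 5 (adjusted p = 0.125). By contrast, in 53 of the 71 genes called lower the mean of the other 5 lay above the mean of the 4.

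LOC112445446, an uncharacterized gene chosen after its values were seen, had the largest log2 fold change of all tested genes, 13.84 ± 3.08 (adjusted p = 0.048). It stood at 527, 596, 233 and 518 CPM in the ED of IVPF10, IVPF13, IVPF14 and IVP14, at 0 in the other 3 IVP ED, and at 0 or 1 counts in every one of the 9 IVV ED. In the EEM it stood at 1.5 CPM in IVP10, at 0 in IVP11, at 15.1 in IVP14, at 0.018 in IVPF13 and at 13 in IVPF14. IVP14 and IVPF14 were thus high in both tissues, IVPF13 in the ED alone, and IVP10 had counts in the EEM alone. The fitted fold is no bound, since the 4 IVV ED were at the floor, and the gene could be called in no other direction.

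Most calls of genes higher in IVP lay near the threshold. SCTR (Entrez 523291), the secretin receptor, stood at 0.0561, 0.11, 0.0369 and 0.018 CPM in VE4, VE24, VE19 and VE3 and at 0.327 to 6.19 CPM in IVP, with a median of 0.966. Its log2 fold change was 4.79 ± 0.82 (adjusted p = 0.0058), and of the 8 higher genes with a symbol and the smallest p it alone passed in each of the 11 leave-one-out fits. With 1 to 6 counts in the 4 IVV ED, SCTR passed the filter on low counts through the IVP ED alone. It could be called in no other direction, so its passing in those fits lends that direction no support. HSD3B1 (Entrez 281824), an enzyme of progesterone synthesis, stood at 52.0, 65.7, 42.9 and 28.3 CPM in VE4, VE24, VE19 and VE3. IVP ED ran from 44.2 to 184 CPM with a median of 154, and IVPF10 was the sole IVP embryo within the IVV range. The log2 fold change was 1.69 ± 0.36 (adjusted p = 0.0369), and no other gene of the 26 tested in the steroid and cholesterol list was called.

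TDRD9 (Entrez 525070), a helicase of the piRNA pathway, stood at 2.47, 13, 0.793 and 21.5 CPM in VE4, VE24, VE19 and VE3 and at 43.4 to 79.9 CPM in IVP (log2 fold change 2.80 ± 0.59, adjusted p = 0.035). The groups did not overlap, and the IVV values differed among themselves without regard to the score. DDIT4, an inhibitor of mTORC1 that responds to hypoxia and other stress, stood at 24.5 to 50.7 CPM in the 4 IVV ED and at 50 to 173 CPM in IVP (log2 fold change 1.66 ± 0.33, adjusted p = 0.0249). It was the 1 call among 29 tested genes of glycolysis and hypoxia response, whose median was 0.21.

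CPQ, a carboxypeptidase, PDX1, a homeobox factor of foregut endoderm, MUC5AC, a secreted mucin, and TRIM47, of a family of ubiquitin ligases, had log2 fold changes of 2.38, 3.31, 3.32 and 2.31 (adjusted p = 0.0281, 0.0344, 0.0344 and 0.0418). PDX1 and MUC5AC, at 3 to 22 and 2 to 10 counts in the 4 IVV ED, passed the filter on low counts through the IVP ED alone. Leaving out single libraries ended the calls of HSD3B1 in 9 fits (highest adjusted p = 0.188, without VE3), CPQ in 5 (0.1, without VE3), MUC5AC in 5 (0.118, without VE3), TRIM47 in 4 (0.158, without VE3), TDRD9 in 4 (0.0716, without IVPF15), PDX1 in 4 (0.166, without VE24) and DDIT4 in 3 (0.135, without VE3). With the title letter as a term the adjusted p was 0.0535 for CPQ, 0.0554 for PDX1, 0.0554 for TRIM47 and 0.0809 for TDRD9. With XIST as a covariate 39 genes were lower and 1 was higher. The log2 fold changes were then 2.40 for HSD3B1, 2.16 for DDIT4 and 6.19 for SCTR, each larger than without it, and 1.52 for TDRD9, while the adjusted p was 0.352, 0.45, 0.352 and 1. CPQ (2.77), TRIM47 (2.67), MUC5AC (3.26) and PDX1 (2.02) were not called in that fit either (adjusted p = 0.694, 0.805, 1 and 1). Of 40 called genes that were followed, 39 were tested with XIST as a covariate, and 14 of these kept their call.

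Some choices in the fit ended further calls among the 40 genes followed, with the direction of each kept. Without a surrogate variable RSPO3 (adjusted p = 0.0798) and PDGFRB, a receptor of mesenchyme (adjusted p = 0.163), were lost along with ID4, MSX1, CDH11 and NR4A1. With the epiblast share as a covariate ID4 (adjusted p = 0.0573), WNT5A (0.0688), RSPO3 (0.0775), CDH11 (0.149) and PDGFRB (0.249) were lost along with NR4A1. The voom fit did not call SCTR (adjusted p = 0.11), PDX1 (0.0843), MUC5AC (0.162), TRIM47 (0.108), MSX1 (0.0793), WNT5A (0.0543) and RSPO3 (0.103). A second surrogate variable ended 13 calls, among them TGFBI (adjusted p = 0.0522), H2BC5 (0.0575), HSPA1A (0.143), LMO2 (0.0913), DDIT4 (0.0707), CPQ (0.0919) and TDRD9 (0.054). With the 4 IVV ED lowest by TBXT and MIXL1 alone, where VE6 takes the place of VE3, CPQ (adjusted p = 0.492), MUC5AC (0.293), TRIM47 (0.0839) and RSPO3 (0.573) were not called. The 3 embryos titled IVP alone ended 21 of the 40 calls, among them NANOS3 (adjusted p = 0.0577), TGFBI (0.114) and KDR (0.143). The 4 titled IVPF alone ended 19, among them KDR (0.0776), ID1 (0.0575), FOS (0.0535) and H2AC25 (0.0559). These 2 fits hold fewer embryos.

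Lists of the other cell types and processes of the ED had few or no called members. Of the 28 lists, 14 had no called member, among them epiblast pluripotency (18 tested, median 0.19), trophoblast (23, 0.08), neural plate and anterior epiblast (15, -0.19), imprinted genes (19, 0.01), DNA methylation (14, 0.12), p53 response (18, -0.04), retinoic acid (18, -0.32), interferon response (10, 0.08) and axis HOX genes (19, -0.38). The hypoblast and endoderm list had 0 lower and 1 higher of 21, with a median of 0.09. SOX17 and GATA6, hypoblast factors, had log2 fold changes of -0.80 ± 0.51 and -0.28 ± 0.32 (adjusted p = 0.872 and 1). POU5F1 had a log2 fold change of -0.86 ± 0.34 (adjusted p = 0.443), against -2.17 (adjusted p = 6.98e-05) with the other 5 IVV ED. KRT7, a keratin of trophoblast, was at 415 to 460 CPM in the 4 IVV ED and at 83.4 to 316 CPM in IVP (log2 fold change -1.19 ± 0.29, adjusted p = 0.0703).

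**Figure D4:**
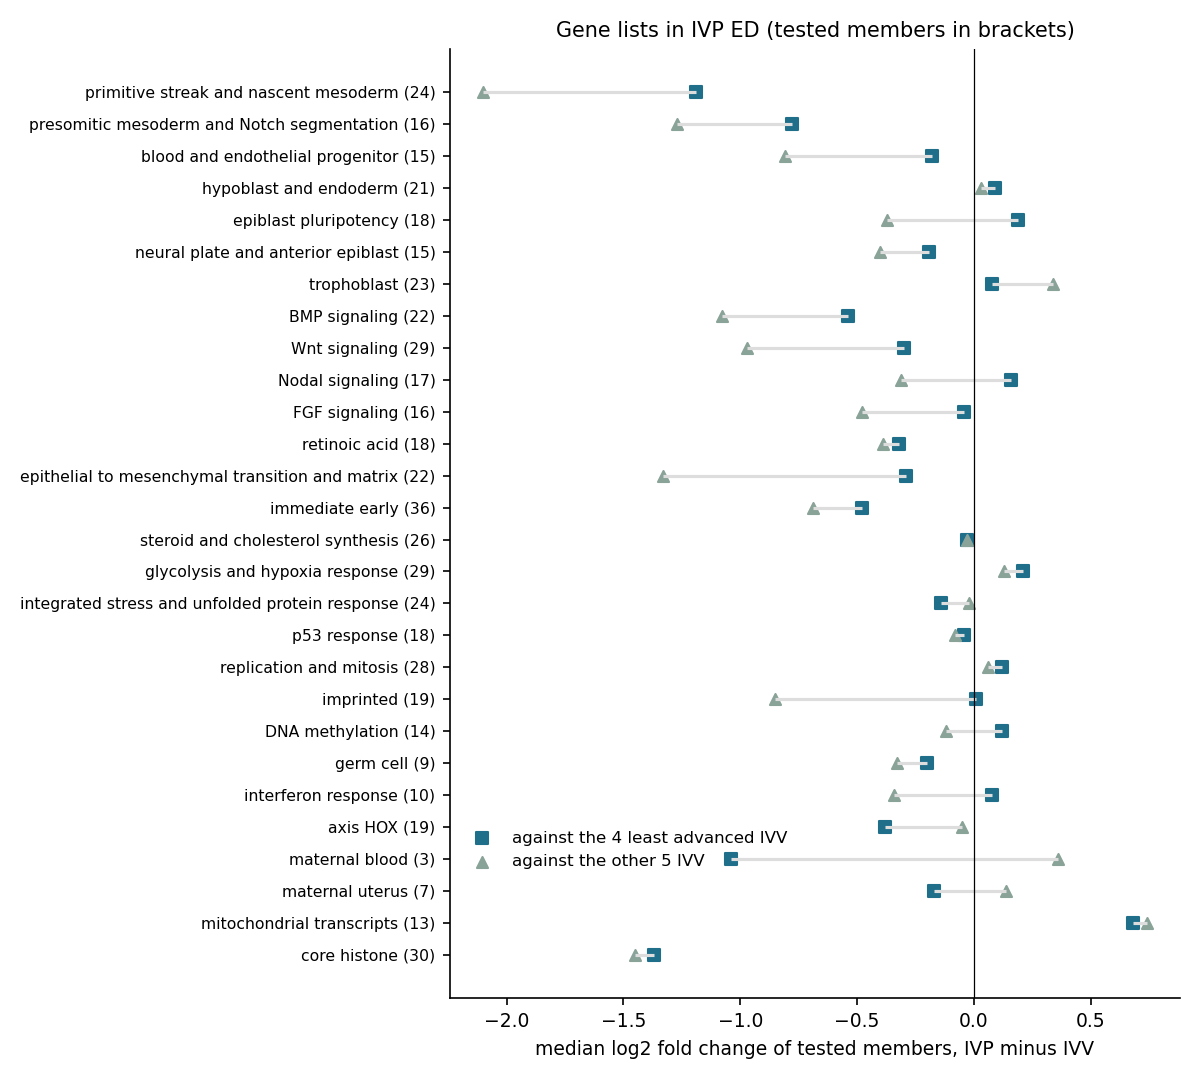
Median log2 fold change of the tested members of each gene list (horizontal axis, IVP minus IVV) against the 4 least advanced IVV ED (squares) and against the other 5 (triangles), with the number tested against the 4 in brackets. The streak list moves from -1.19 to -2.10 and the matrix list from -0.29 to -1.33, while core histones lie at -1.37 and -1.45. Both comparisons share the 7 IVP libraries.

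RNA of the cow and of mitochondria was looked at in the same way. In the maternal blood list 3 of 11 genes could be tested and 1, S100A8, was lower in IVP, at 0.288 to 0.384 CPM in the 4 IVV ED against 0 or 1 counts in IVP (adjusted p = 0.00101). S100A8 passed the filter on low counts through the IVV ED alone, so it could be called in no other direction. The summed level of that list was 5.62 to 20.4 CPM in IVP and 11.6 to 47.6 CPM in the 4 IVV ED, highest in VE4, and its part in the results was not tested. The maternal uterus list summed to 8.62 to 26.7 and 8.43 to 23.2 CPM, with 0 of 7 called. The 13 mitochondrial transcripts had a median of 0.68 with 0 calls, and their summed level overlapped between the groups. It was 27929, 42573, 152244 and 15282 CPM in VE4, VE24, VE19 and VE3, and 32658 to 102060 CPM in IVP. VE19, the lowest of the 4 for APLNR, KDR, CD34, FLI1, WNT5A and CDH11, was thus above every other library of the 11 in mitochondrial RNA. Without VE19, 97 genes were lower and 63 higher, as given above.

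As a comparison that makes no choice of IVV embryos, all 16 ED were fitted with the score as a covariate. At equal score 90 genes were lower (0.572%) and 38 were higher (0.242%) in IVP, of 15730 tested. The streak list then had 2 of 24 members lower, with a median of -0.40. As the score is itself made of streak genes, a smaller difference in genes that vary with it was built into that fit. APLNR (-4.93, adjusted p = 0.000288), MESP2 (-3.59, adjusted p = 0.0046), KDR (-4.95, adjusted p = 0.000698), ID1 (-2.33, adjusted p = 0.00827) and NANOS3 (-3.90, adjusted p = 0.00122) were lower in that fit too, while WNT3 (-1.10, adjusted p = 0.335), TBX6 (-0.64, adjusted p = 0.809) and POU5F1 (0.09, adjusted p = 0.987), which had not passed against the 4 either, were not called. Of 38 followed calls tested in that fit 12 were lost and 26 held. The lost calls among the lower genes were LMO2 (log2 fold change -1.70, adjusted p = 0.102), ID4 (-1.61, 0.104), MSX1 (-1.42, 0.108), HSPA1A (-1.29, 0.204), HSPA6 (-1.99, 0.305), NR4A1 (-1.96, 0.0913) and H2BC5 (-1.57, 0.0612). Those among the higher were HSD3B1 (1.51, 0.0612), TRIM47 (2.36, 0.0585), MUC5AC (2.52, 0.293), RSPO3 (1.05, 0.526) and CPQ (1.69, 0.701). None changed direction. The folds of NR4A1 and TRIM47 were larger than against the 4 IVV ED, and the others were smaller. MEG3 (1.80, adjusted p = 0.0102) was higher and KRT7 (-1.48, adjusted p = 0.0483) lower at equal score, although neither was called against the 4 IVV ED. The same held for SOX21 of the neural plate list (3.53, adjusted p = 0.0306) and GDF3 of the Nodal list (3.50, adjusted p = 0.0359), both higher at equal score. The score and the procedure overlap in few embryos, so the covariate is fitted largely within each group.

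The membranes gave libraries that the score did not use. The EEM of 6 IVP embryos, 5 of which also gave an ED, were compared with the EEM of the same 4 IVV embryos. Of 14949 genes tested, 63 were lower in IVP (0.421%) and 114 were higher (0.763%). The counts moved with single libraries, from 17 higher without VE24, 30 without VE3, 40 without VE4 and 68 without IVP11 to 210 without IVPF14, and to 28 lower without VE24. Of the 71 genes lower in the ED, 26 were tested in the EEM and 10 were lower there, which is 14.1% of the ED list and 15.9% of the EEM list. Of the 28 higher in the ED, 15 were tested and 9 were higher, which is 32.1% and 7.89%. In the opposite direction 0 were called. ED and EEM libraries of an embryo share its genotype and its history, so they are not independent of each other.

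NANOS3 was at 0 or 1 counts in each IVP EEM and at 0.534 to 2.93 CPM in the 4 IVV EEM, at least 28-fold lower (adjusted p = 0.000123). As in the ED, it passed the filter through the IVV libraries alone and could be called in no other direction. FOS ran from 37.9 to 151 CPM in IVP and from 302 to 878 CPM in IVV (log2 fold change -2.58 ± 0.36, adjusted p = 0.00227). XIST was at 0 to 0.549 CPM in IVP and at 224, 196, 356 and 0.196 CPM in the EEM of VE4, VE24, VE19 and VE3, the same embryo being low as in the ED. HSD3B1 (1.85 ± 0.34, adjusted p = 0.0159), TDRD9 (3.04 ± 0.47, adjusted p = 0.00641) and CPQ (1.93 ± 0.37, adjusted p = 0.022) were higher in IVP EEM, with no overlap between the groups.

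MEG3, an imprinted noncoding RNA of maternal expression, was higher in IVP EEM, at 4.79 to 11.5 CPM against 0.0534 to 1.79 CPM (log2 fold change 4.43 ± 0.52, adjusted p = 0.000566). In the ED it ran from 5.86 to 21.4 CPM in IVP and from 2.78 to 16.5 CPM in the 4 IVV ED (0.72 ± 0.44, adjusted p = 0.85), and the difference between the tissues was not tested. PDGFB, a growth factor of mesenchyme, was higher in IVP EEM (2.35 ± 0.34, adjusted p = 0.00305) and had a log2 fold change of 0.90 ± 0.32 in the ED (adjusted p = 0.361). The mesoderm genes APLNR, KDR, CD34, TGFBI and TNC were below the filter in the EEM. MESP2 (-1.17 ± 0.93, adjusted p = 0.789) and ID1 (-1.34 ± 0.49, adjusted p = 0.265) were not called there.

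**Figure D5:**
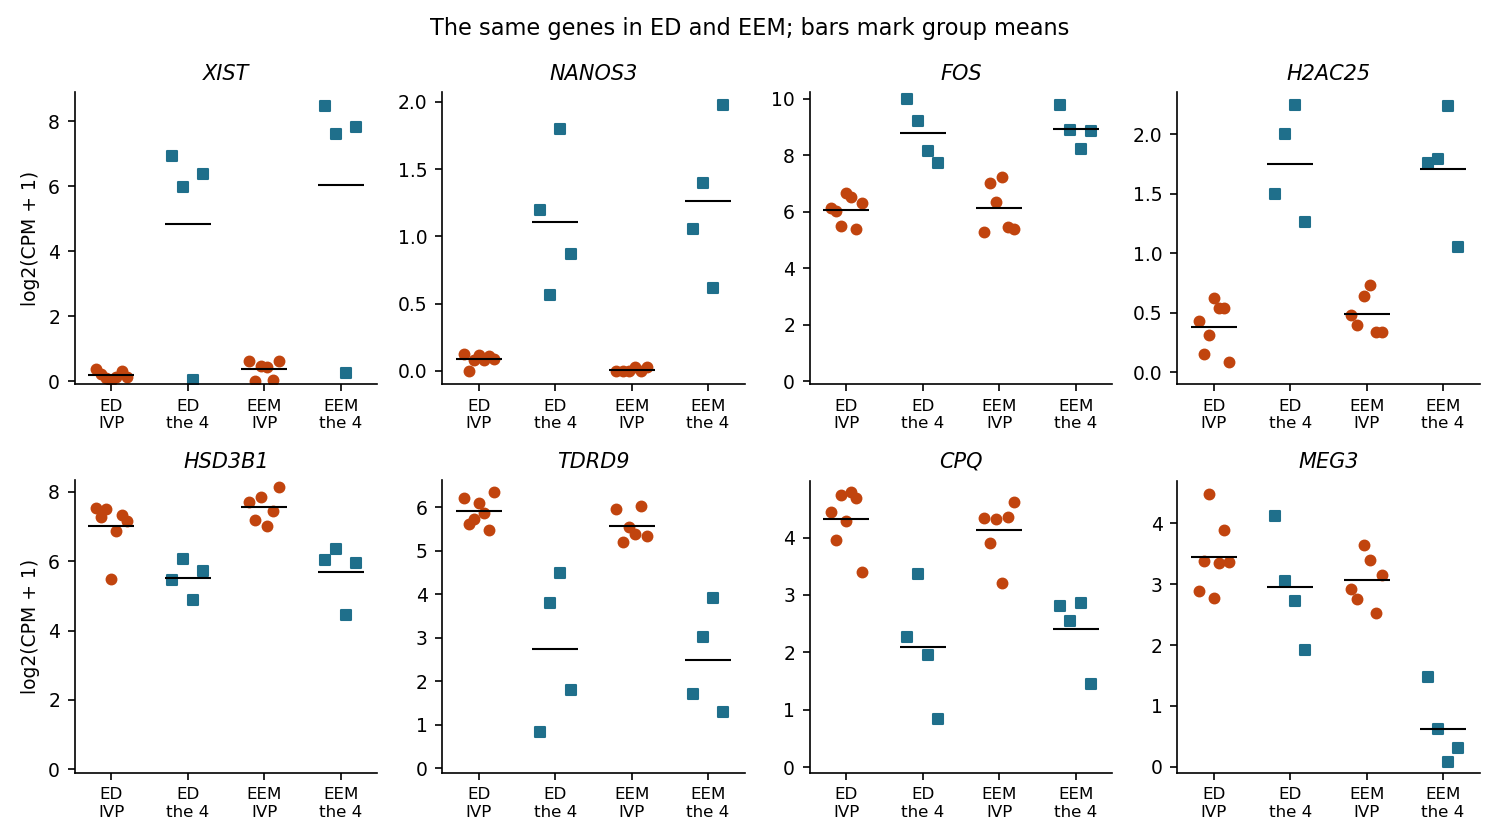
Levels of 8 genes (vertical axes, log2(CPM + 1)) in the ED and the EEM of IVP embryos (circles, n = 7 and 6) and of the 4 least advanced IVV embryos (squares), with bars at group means. NANOS3, FOS and H2AC25 are lower and TDRD9 and CPQ higher in IVP in both tissues without overlap, while MEG3 separates the groups in the EEM only and XIST is low in 1 of the 4 IVV embryos.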

How the data were processed

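Poly(A)-selected, non-stranded paired libraries of single ED and EEM pieces were sequenced. The authors filtered the reads with SOAPnuke, aligned them with STAR 2.7.0b (genome ARS-UCD1.3) and ran featureCounts of Subread 2.0.3. The deposited values are raw counts for 35092 genes by Entrez ID. FastQC 0.11.9 and Trimmomatic are named in the submitters' processing notes. Symbols for 31630 IDs (99.5% of the counts) were taken from RefSeq (assembly ARS-UCD2.0), and no coordinates were used. Reads of overlapping genes on opposite strands cannot be told apart. The ED libraries held 48713218 to 63037371 counts.

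Counts were scaled with TMM factors, filtered with edgeR's filterByExpr (at least 10 counts) and tested with the quasi-likelihood test of edgeR 4.0.16 in R 4.3.3, with 1 surrogate variable from svaseq (sva 3.50.0). For its own calls the study ran DESeq2, with sva as the control for morphology. P-values were adjusted by the Benjamini-Hochberg method over all genes tested, and an adjusted p under 0.05 made a call. Each comparison was fitted on its own libraries. Levels are CPM of library totals, fold changes are fitted log2 values with SE, and a fold against a group with at most 3 counts in every library is a lower bound, taken from 3 counts per library. The scripts were tested on simulated data.

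The embryos, the 28 gene lists and the named genes were chosen with earlier results of these data known. Named were the 8 genes with the smallest p and a symbol per direction, up to 4 per list, 14 single genes and 7 lineage markers, of which part is printed; 9 list genes were not found. MESP1, TBX6, GSC, EGR1, CYTL1, PDGFRB, CASP8, HSPA6 and LOC112445446 were chosen after their values were seen. Alternatives were DESeq2 1.42.0, voom (limma 3.58.1), other surrogate variables, factors, filters, halved counts, other choices of IVV embryos, covariates, title classes, and leaving out each library.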

Additional observations from a re-analysis of the deposited data

Results flagged for a closer look

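In 129 groups of values of printed genes in the 7 IVP or the 4 least advanced IVV ED, the highest or the lowest library was set against the others of its group by its gap, and 10 stood apart, where chance gives about 5% of groups. XIST was far lower in VE3 (0.018 CPM) than in the other 3 IVV embryos. VE3 was also the highest of the 4 for HSPA1A (468 CPM) and for PDX1 (0.397 CPM), and VE24 was the highest for KRT23 (0.823 CPM) and for S100A8 (0.384 CPM). Among the IVP embryos, IVPF10 was the lowest for HSD3B1 (44.2 CPM) and IVP11 for NANOS3 (0 CPM), a gene with at most 5 counts in any IVP ED. In IVPF14, CYP4B1 and CD34 were each at 0.0205 CPM, and in IVPF13 S100A8 was at 0.02 CPM, where every other IVP library was at 0, which is a difference of 1 count.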

How the results depend on the processing

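The fold changes of 40 called genes were followed in 23 to 33 alternatives each, those in which the gene was tested, and 0 changed direction there. All but CD34 were tested in each of the 11 fits that left out a library, and 21 of those 39 kept their call in all 11. The counts of genes lower and higher in IVP (71 and 28) were 151 and 100 with DESeq2, 206 and 77 with no filter, 13 and 2 with at least 10 counts in every library, 232 and 58 in a fit of 3 groups, 775 and 220 with all 9 IVV ED, 39 and 1 with XIST as a covariate, 121 and 47 with the epiblast share as a covariate, and 28 and 10 with the 3 embryos titled IVP. Without a surrogate variable and with XIST as a covariate, chosen after seeing the data, they were 47 and 7. The lower count was 126 with the 5 lowest IVV ED. The higher count was 12 with voom, 18 with RLE factors, 15 with halved counts, 13 with the 3 lowest IVV ED, 14 with the title letter as a term and 9 with the 4 embryos titled IVPF. Leaving out single libraries gave 57 to 116 lower and 13 to 63 higher. Against the other 5 IVV ED, DESeq2 called 424 higher. In the EEM the counts (63 and 114) were 145 and 401 with DESeq2, 160 and 223 with no filter and 224 and 337 with all 8 IVV EEM, 46 were higher without a surrogate variable, and leaving out single libraries gave 28 to 80 lower and 17 to 210 higher. The causes were not tested, except that the stricter filter tests fewer genes and the title classes hold fewer embryos. No paired analysis was possible because IVP and IVV embryos are different embryos that share no number.

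The choice of 4 of 9 IVV embryos by 3 genes did not bring them to the IVP range, VE3 and VE6 had nearly equal scores, and low counts limit the genes near 0. The cow and the procedure move together in these embryos, and XIST moves with them in all but VE3 and VE5.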

Other observations

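Beyond the lists, a few genes lower in the IVP ED were looked at after their values had been seen. CYTL1, which encodes a secreted cytokine-like protein, had 0 counts in all 7 IVP ED and stood at 0.785, 0.293, 0.554 and 0.613 CPM in VE4, VE24, VE19 and VE3, at least 10.2-fold lower in IVP (edgeR, adjusted p = 0.00237). It passed the filter on low counts through the IVV ED alone, so it could be called in no other direction. CASP8, the initiator caspase of death receptors, stood at 1.87, 2.85, 1.73 and 1.28 CPM in VE4, VE24, VE19 and VE3 and at 0.255 to 0.563 CPM in IVP, with no overlap (log2 fold change -2.32 ± 0.39, adjusted p = 0.00522). With XIST as a covariate it was -1.78 (adjusted p = 0.685). HSPA6, an inducible heat shock gene, stood at 3.27, 19.1, 19.2 and 10.5 CPM in those IVV ED and at 0.282 to 1.91 CPM in IVP (log2 fold change -3.24 ± 0.51, adjusted p = 0.00337; 0.305 with the score as a covariate in 16 ED and 0.0631 with XIST as a covariate). JADE2, a chromatin-associated gene that was not chosen in this way, had a log2 fold change of -1.19 ± 0.35 (adjusted p = 0.209), and its values of 2.62, 3.82, 6.01 and 6.31 CPM in VE4, VE24, VE19 and VE3 lay above the 1.16 to 2.46 CPM of the IVP ED.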
